A study of Homo sapiens with 9 samples.

Results

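The G2/M and mitosis genes described here are a list of 43: cyclins and CDK1 with its partners and activators, the mitotic kinases, the chromosomal passenger complex, centromere proteins, kinesins, spindle and cytokinesis proteins, and the proliferation marker MKI67. Genes of the spindle checkpoint and of the anaphase-promoting complex (APC/C) were left out of the list. The members were listed by name, with earlier results of these data known, and all 43 were among the 15436 genes of the deposited table. Of these, 41 were abundant enough to test, while NEK2, a centrosome kinase, and SGO2, a protector of centromeric cohesion, were not. RNA came from Raji, a long-established Burkitt lymphoma B-cell line. These cells were given thymidine with nocodazole (Thy-Noc, 3 libraries), hydroxyurea (HU, 3 libraries) or the solvent DMSO (3 libraries). Sources used here give no doses, times, order of thymidine and nocodazole, or share of cells in each stage of the cycle.

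Genes of this kind form the late wave of the cell-cycle programme: their RNA is scarce in G1, builds up through S phase and peaks in G2 and mitosis. Cyclin A2 and cyclin B with CDK1 start mitosis, the Polo and Aurora kinases build the spindle, and kinesins, the passenger complex and the cytokinesis proteins move the chromosomes and divide the cell. Hydroxyurea inhibits ribonucleotide reductase and so slows DNA synthesis, excess thymidine also stalls it, and nocodazole prevents microtubules from forming a spindle. In bulk RNA, fewer cells in G2 and mitosis and less of these RNAs per cell cannot be told apart.

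Promoters of late cell-cycle genes are known for the cell-cycle genes homology region (CHR), to which MuvB-type complexes bind, and for CCAAT boxes, to which the factor NF-Y binds. The windows of 4 genes called in the tests below and of MKI67, which was not called, are printed to show these letters. Each runs 5′ to 3′ on the gene's strand from 250 bases before the RefSeq start towards that start (RefSeq, GRCh38.p14), up to the first base that any GENCODE exon covers. Capitals mark the CHR letters TTTGAA or TTTAAA, or CCAAT, on either strand, so TTCAAA and ATTGG are the reverse matches.
CCNA2: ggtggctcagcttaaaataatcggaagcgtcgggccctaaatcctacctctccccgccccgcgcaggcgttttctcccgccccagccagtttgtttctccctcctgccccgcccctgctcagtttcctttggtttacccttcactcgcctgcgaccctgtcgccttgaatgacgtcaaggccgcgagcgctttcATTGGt
CKS2: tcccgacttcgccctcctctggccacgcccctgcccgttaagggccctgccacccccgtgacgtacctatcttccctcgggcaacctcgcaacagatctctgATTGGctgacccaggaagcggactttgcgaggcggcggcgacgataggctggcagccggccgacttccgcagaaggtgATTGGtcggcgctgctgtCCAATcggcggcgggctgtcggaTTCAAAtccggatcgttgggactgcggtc
CENPF: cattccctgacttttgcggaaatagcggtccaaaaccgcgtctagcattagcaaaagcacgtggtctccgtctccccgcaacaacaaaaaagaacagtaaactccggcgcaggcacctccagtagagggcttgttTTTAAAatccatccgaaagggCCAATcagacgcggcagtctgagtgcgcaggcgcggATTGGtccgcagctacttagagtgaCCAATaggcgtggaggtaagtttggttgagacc
CDCA8: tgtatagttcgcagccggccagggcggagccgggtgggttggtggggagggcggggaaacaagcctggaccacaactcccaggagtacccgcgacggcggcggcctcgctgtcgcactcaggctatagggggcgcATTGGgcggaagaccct
MKI67: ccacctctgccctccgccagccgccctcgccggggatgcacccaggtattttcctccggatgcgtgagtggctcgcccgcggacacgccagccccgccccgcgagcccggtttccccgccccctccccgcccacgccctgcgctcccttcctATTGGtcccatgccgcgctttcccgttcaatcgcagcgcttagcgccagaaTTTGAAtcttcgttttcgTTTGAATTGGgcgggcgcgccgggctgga
The windows lie at chr4:121823934-121824133 on the minus strand (CCNA2), chr9:89310945-89311194 on the plus strand (CKS2), chr1:214602945-214603194 on the plus strand (CENPF), chr1:37692266-37692417 on the plus strand (CDCA8) and chr10:128126424-128126673 on the minus strand (MKI67). CKS2 holds the reverse of TTTGAA from base 29 to base 24 before the start and 3 CCAAT boxes. CENPF holds TTTAAA from base 115 to base 110 and 3 CCAAT boxes. MKI67 holds TTTGAA at bases 47 to 42 and again at bases 29 to 24. CCNA2 has neither TTTGAA nor TTTAAA in its 250 bases and 1 reverse CCAAT box. CDCA8 has TTTGAA at bases 23 to 18, nearer to the start than the printed stretch.

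Over the whole list, 38 of the 43 members matched the RefSeq promoter table, and AURKA, TPX2, BIRC5, FAM83D and TROAP did not. TTTGAA stood within 250 bases before the start in 23 of the 38 members (60.5%), against 13.6% of the 27305 promoters in the table. Those 27305 were not limited to genes listed or tested in these data, so the shares come from unlike sets. TTTAAA stood in 12 members (31.6%), against 11.4% of all promoters. CCAAT stood in 30 members (78.9%), against 33.0% of all promoters, and 19 members held 2 or more copies. At least 1 of the 2 CHR spellings was present in 29 members (76.3%), against 22.1% of all promoters, and 26 (68.4%) held it together with CCAAT, against 7.85%. TTTGAA and ATTGG can share bases, as they do in the MKI67 window. These are matches of letters, not measured binding. Only these spellings were searched, at 1 RefSeq start per gene. A member without them may hold a site spelled otherwise or placed elsewhere. The median log2 fold change of HU against DMSO was −0.67 in the 29 tested members with the CHR letters and −0.79 in the 7 tested members without. In Thy-Noc against HU it was 0.92 with them and 0.57 without, and among steady members (libraries of a group less than 10-fold apart after adding 0.5 CPM) 0.72 in the 21 with them and 0.07 in the 5 without. In HU against DMSO the same steady members had −0.56 with them and −0.54 without. These differences between members were not tested.

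The summed expected counts were 76668973 to 105362232 in Thy-Noc, 74940755 to 95298522 in HU and 77961480 to 110485145 in DMSO. All 8 B-cell markers checked were listed, and their summed level was 1377 to 2027 CPM in Thy-Noc, 1064 to 1969 CPM in HU and 1404 to 1920 CPM in DMSO. CPM is the usual depth-scaled count, here with TMM-scaled library totals. Of 6 genes checked as epithelial, stromal or endothelial markers, COL1A1 and PECAM1 were listed. Their sum was 3.43 to 7.38 CPM in Thy-Noc, 10.9 to 16.1 CPM in HU and 3.48 to 5.35 CPM in DMSO. Of 6 myeloid markers, LYZ and CD68 were listed, with a summed 0.286 to 0.963 CPM in Thy-Noc, 1.14 to 2.64 CPM in HU and 0.331 to 0.596 CPM in DMSO. Of 6 T-cell and NK-cell markers, NKG7 alone was listed and stayed under 1 CPM in every library. The sum of COL1A1 and PECAM1 and that of LYZ and CD68 were thus higher in HU, as low values. Sums of so few genes do not show which cells were present, and their part in the results was not tested. The labels do not say that replicates came from separate cultures, so a p-value measures the spread between these libraries, which may be technical.

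In HU against DMSO, 5 of the 41 tested members were lower past an adjusted p of 0.05 in edgeR's quasi-likelihood test, beside 1.56% of all tested genes. They were CCNA2, CKS2, CDCA8, CENPF and TROAP. All 5 calls were lost without HU replicate 1, without DMSO replicate 1 and without DMSO replicate 3, though the direction held, with adjusted p of 0.0637 to 0.118, 0.0566 to 0.116 and 0.0638 to 0.0948 in edgeR. Without HU replicate 3 or DMSO replicate 2, 1 of the 5 was called. The fits without HU replicate 1 and without DMSO replicate 1 called 16 genes lower among all tested genes in each case, against 177 with every library. No member was higher past that threshold, beside 2.0% of all tested genes. Nor was any member higher at an unadjusted p under 0.05 in edgeR, or at an adjusted one in DESeq2 or limma, beside 11.1%, 9.51% and 2.77% of all tested genes. At an unadjusted p under 0.05, edgeR gave 14 members lower, beside 10.1% of all tested genes. DESeq2 called 11 lower and limma 7, beside 9.31% and 2.19%. Beyond the 5, DESeq2 called PLK1, CENPE, KIF23, DLGAP5, GTSE1 and ANLN, and limma CENPE and KIF23. For 16 of the 41, all 3 HU libraries lay under all 3 DMSO libraries, beside 15.3% of all tested genes. For no member did all 3 HU libraries lie above DMSO, beside 15.5%. The fitted fold change was below 0 for 35 members, beside 48.7% of all tested genes, and the median log2 fold change was −0.75 over the members and 0.02 over all tested genes.

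In Thy-Noc against DMSO, edgeR called 0 of the 41 members lower and 0 higher, beside 0.00881% and 0.0264% of all tested genes. At an unadjusted p under 0.05, edgeR gave 2 members lower, KIF23 and TROAP, and 1 higher, ASPM, beside 2.04% and 2.45% of all tested genes. DESeq2 called KIF23 and TROAP lower and no member higher, beside 0.679% and 0.899% of all tested genes, and limma called none in either direction, beside 0.0441% lower and 0.0617% higher. For 3 members the groups did not overlap downwards and for 3 upwards, beside 4.79% and 5.18% of all tested genes. The fold change was above 0 for 28 members, beside 51.1% of all tested genes. The members' median log2 fold change was 0.12, and that of all tested genes 0.01.

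In Thy-Noc against HU, edgeR called 3 members higher, CCNA2, CKS2 and CENPF, beside 1.06% of all tested genes. None of the 3 was called without HU replicate 1 or without Thy-Noc replicate 3, fits that called 5 genes and 1 gene higher among all tested genes. Without Thy-Noc replicate 2, HU replicate 3 or any 1 DMSO library, 1 of the 3 was called. It called 0 lower, beside 0.696% of all tested genes. There were also 0 lower at an unadjusted p under 0.05 in edgeR, in DESeq2 and in limma, beside 10.1%, 7.93% and 1.30%. In the higher direction an unadjusted p under 0.05 gave 15 members, DESeq2 12 and limma 4, beside 9.34%, 8.16% and 1.57%. Beyond the 3, DESeq2 called CDC25C, CDCA8, BIRC5, CENPA, CENPE, KIF20A, GTSE1, TROAP and ANLN, and limma GTSE1. The fold change was above 0 for 34 members, beside 49.3% of all tested genes. All 3 Thy-Noc libraries lay above all 3 HU libraries for 17 members, beside 12.0% of all tested genes, and below them for none, beside 12.9%. The members' median log2 fold change was 0.78, and that of all tested genes −0.01. HU libraries enter 2 of these comparisons and DMSO libraries 2, so the 3 comparisons are not independent of each other.

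**Figure D1:**
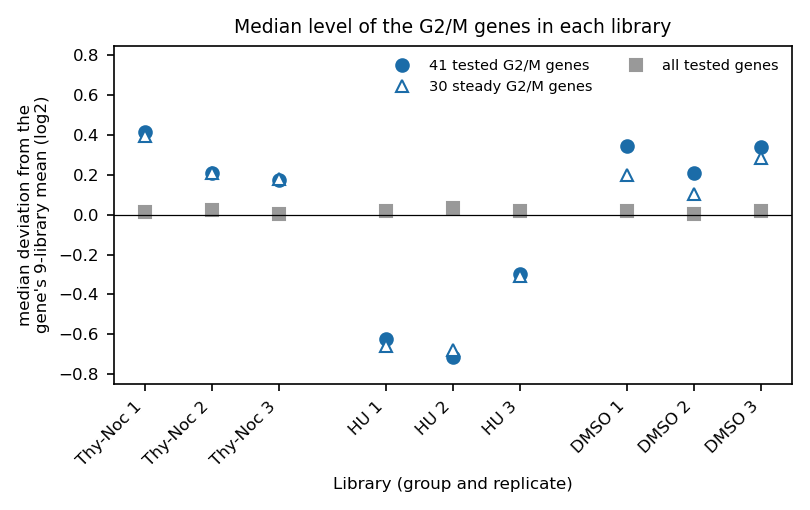
Median deviation of the tested G2/M genes from each gene's mean over the 9 libraries (log2 scale, y axis) in each library (x axis), for the 41 tested members (circles), the 30 steady members (triangles) and all tested genes (squares). The 3 HU libraries sit between −0.72 and −0.30 for the 41 members, while Thy-Noc (0.17 to 0.42) and DMSO (0.21 to 0.34) overlap above 0.

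Seen library by library, the median deviation of the 41 members from their own 9-library means was 0.42, 0.21 and 0.17 in Thy-Noc, −0.62, −0.72 and −0.30 in HU, and 0.34, 0.21 and 0.34 in DMSO, on the log2 scale. HU replicate 3 was the nearest of its group to the others, and all 3 HU libraries were below every other library. The library with the lowest value was a Thy-Noc library for 6 members, an HU library for 26 and a DMSO library for 9. Over all tested genes the median deviation stayed between 0.00 and 0.04 in every library.

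**Figure D2:**
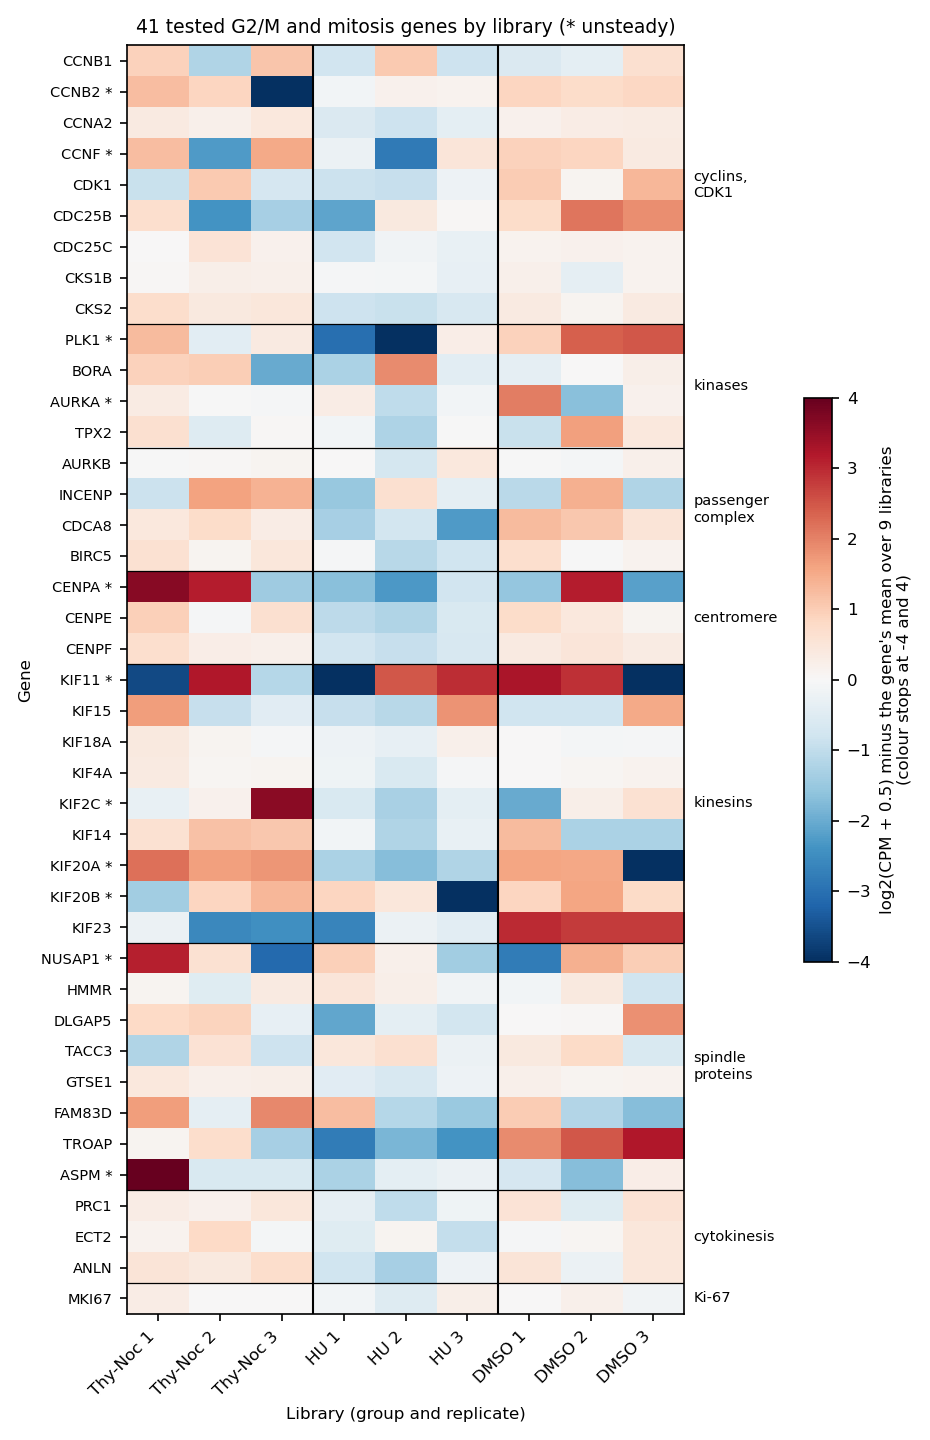
Each tested member (rows, by role) in each library (columns), coloured by log2(CPM + 0.5) minus the gene's mean over the 9 libraries, with the colour stopping at −4 and 4 and asterisks on unsteady genes. TROAP and CDCA8 are blue in the 3 HU columns, and CCNA2, CKS2, CENPF, CENPE and GTSE1 are pale blue there. Rows such as KIF11, CENPA and NUSAP1 change colour within a group.

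Among the cyclins and CDK1 with its partners and activators, 2 of 9 tested members were called lower in HU than in DMSO, beside 1.56% of all tested genes. The median log2 fold change of the 9 was −0.86. CKS2 (ENSG00000123975, chr9:89311198-89316703, plus strand), a small subunit that binds cyclin-dependent kinases, had 157, 127 and 132 CPM in Thy-Noc, 54.6, 52.5 and 61.7 CPM in HU, and 123, 104 and 125 CPM in DMSO. The HU libraries were the lowest with no overlap, and the 3 Thy-Noc libraries lay just above the DMSO ones. Its log2 fold change was −1.06 ± 0.13 (SE) in HU against DMSO, with an adjusted p of 0.0165 in edgeR. Thy-Noc against HU gave 1.30 ± 0.13, with an adjusted p of 0.0131 in edgeR, and Thy-Noc against DMSO gave 0.24 ± 0.13, which did not pass.

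CCNA2 (ENSG00000145386, chr4:121816444-121823933, minus strand), cyclin A2 of S phase and early mitosis, had 90.0, 80.4 and 92.7 CPM in Thy-Noc, 46.8, 38.8 and 52.5 CPM in HU, and 77.7, 85.1 and 88.0 CPM in DMSO. HU was again the lowest group without overlap, and Thy-Noc and DMSO overlapped. The log2 fold change was −0.86 ± 0.13 in HU against DMSO (adjusted p = 0.0259 in edgeR) and 0.93 ± 0.13 in Thy-Noc against HU (adjusted p = 0.0335 in edgeR). Its 3′ end overlaps EXOSC9 on the other strand. CKS2 overlaps the microRNA gene MIR3153, and whether the counting used strand is not given in the sources.

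Cyclin B1 and CDK1, the pair that drives entry into mitosis, had low values in every library. Some deposited values may cover part of a gene only, so these may understate the RNA of either gene. CCNB1 had 9.08, 1.73 and 10.5 CPM in Thy-Noc, 2.51, 10.1 and 2.37 CPM in HU, and 2.94, 3.38 and 7.45 CPM in DMSO. All 3 groups overlapped, with 1 library apart in both Thy-Noc and HU, and the log2 fold change of HU against DMSO was 0.12 ± 0.84 (adjusted p = 0.965 in edgeR). CDK1 had 1.23, 6.13 and 1.502 CPM in Thy-Noc, 1.27, 1.17 and 2.26 CPM in HU, and 5.96, 2.90 and 7.49 CPM in DMSO. The HU libraries lay below the DMSO libraries, but the log2 fold change of −1.80 ± 0.71 did not pass (adjusted p = 0.203 in edgeR).

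CDC25B and CDC25C are the phosphatases that activate CDK1. CDC25B averaged 23.0 ± 24.5 CPM in Thy-Noc, 27.2 ± 18.0 CPM in HU and 104 ± 45.6 CPM in DMSO (SD, n = 3 each). Both treatments lay below DMSO without overlap, and neither log2 fold change, −2.18 ± 0.96 for Thy-Noc and −1.93 ± 0.96 for HU, passed. CDC25C averaged 13.2 ± 2.74 CPM in Thy-Noc, 8.31 ± 1.94 CPM in HU and 12.1 ± 0.153 CPM in DMSO (SD, n = 3 each), a difference of HU from both other groups without overlap that did not pass in edgeR. CCNB2, cyclin B2, had 98.8 to 120 CPM in HU and 179 to 192 CPM in DMSO, but 1 of the 3 Thy-Noc libraries held 3.61 CPM where the other two held 249 and 196 CPM. CCNF, the substrate receptor of a ubiquitin ligase, likewise spread within groups, 2.80 to 45.1 CPM in Thy-Noc, 1.78 to 21.7 CPM in HU and 20.3 to 29.8 CPM in DMSO. CKS1B, the relative of CKS2, averaged 122 ± 9.73 CPM in Thy-Noc, 97.4 ± 9.26 CPM in HU and 109 ± 21.8 CPM in DMSO (SD, n = 3 each). Its log2 fold change of HU against DMSO was −0.16 ± 0.17, and 6 pseudogenes are named after it, so its counts are uncertain.

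**Figure D3:**
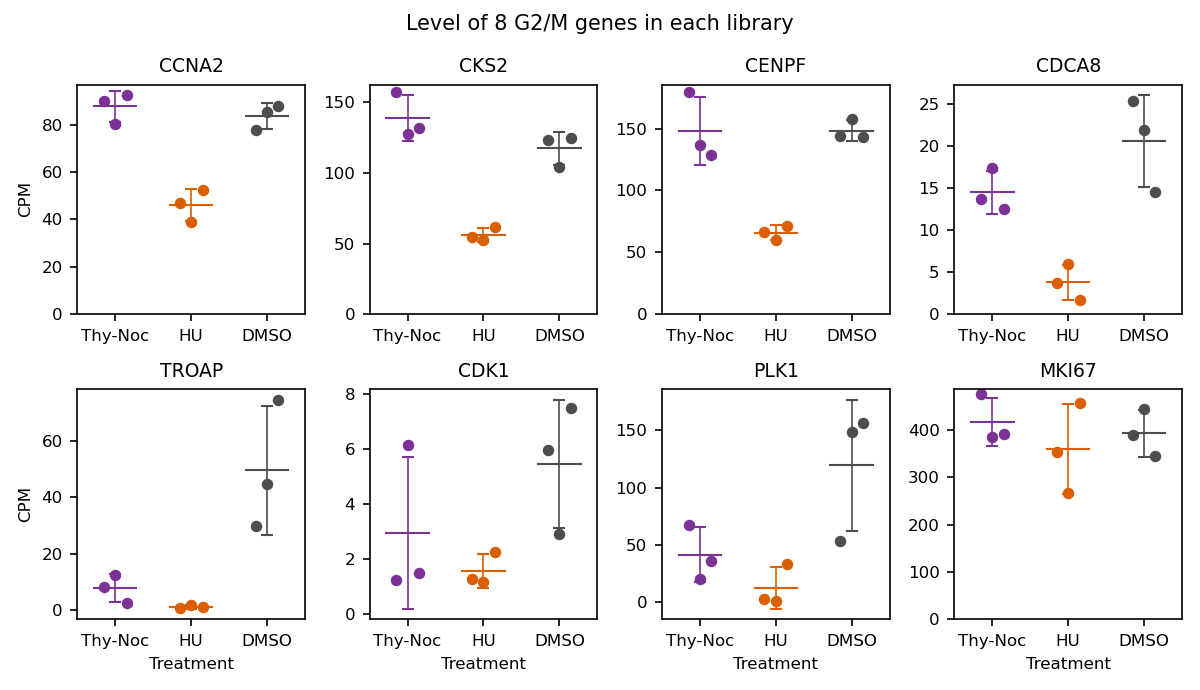
CPM (y axis) of 8 members in the 3 libraries of each treatment (points), with the mean (wide bar) and SD (error bar), n = 3 each. CCNA2, CKS2 and CENPF are lowest in HU with Thy-Noc near DMSO, CDCA8 and TROAP are lowest in HU with Thy-Noc between, CDK1 and PLK1 spread widely, and MKI67 overlaps in all 3 groups.

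None of the 4 tested mitotic kinases and kinase activators passed in edgeR in any comparison, beside at most 2.0% of all tested genes in either direction. PLK1, the Polo-like kinase of mitotic entry and spindle assembly, had 67.6, 20.5 and 36.2 CPM in Thy-Noc, 3.02, 0.972 and 33.5 CPM in HU, and 53.7, 149 and 157 CPM in DMSO. HU lay under DMSO without overlap, but HU replicate 3 was over 10 times the other HU libraries, and the log2 fold change of −3.26 ± 1.29 did not pass (adjusted p = 0.205 in edgeR). In DESeq2 the same change passed, with an adjusted p of 0.0279. AURKA, the Aurora kinase of the spindle poles, had 26.4, 20.6 and 20.0 CPM in Thy-Noc, 25.7, 10.1 and 19.4 CPM in HU, and 87.4, 6.24 and 23.8 CPM in DMSO. The groups overlapped and the spread was widest in DMSO, with a log2 fold change of HU against DMSO of −1.09 ± 0.84 (adjusted p = 0.530 in edgeR). Without DMSO replicate 1 it was 0.29. TPX2, which activates Aurora A on the spindle, averaged 4.41 ± 1.92 CPM in Thy-Noc, 3.01 ± 1.40 CPM in HU and 6.99 ± 5.89 CPM in DMSO, and BORA, which helps Aurora A activate PLK1, averaged 7.24 ± 5.51 CPM in Thy-Noc, 8.57 ± 10.1 CPM in HU and 5.04 ± 1.09 CPM in DMSO (SD, n = 3 each). Both overlapped in all groups.

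The chromosomal passenger complex corrects wrong attachments of microtubules to chromosomes. Of its 4 genes, 1 was called lower in HU than in DMSO, beside 1.56% of all tested genes. CDCA8 (borealin, ENSG00000134690, chr1:37692418-37709719, plus strand), a targeting subunit, had 13.7, 17.4 and 12.5 CPM in Thy-Noc, 3.77, 5.93 and 1.73 CPM in HU, and 25.3, 21.9 and 14.6 CPM in DMSO. Its HU libraries were the lowest without overlap, at a log2 fold change of −2.44 ± 0.46 against DMSO (adjusted p = 0.0412 in edgeR), or 5.41-fold lower. Thy-Noc against HU gave 1.93 ± 0.45 and did not pass (adjusted p = 0.0826 in edgeR). AURKB, the kinase of the complex, had 21.2, 22.4 and 23.2 CPM in Thy-Noc, 21.9, 12.9 and 28.9 CPM in HU, and 21.4, 20.3 and 25.1 CPM in DMSO. All groups overlapped, and its log2 fold change of HU against DMSO was −0.07 ± 0.28. BIRC5 (survivin), the other targeting subunit, averaged 87.8 ± 15.4 CPM in Thy-Noc, 44.0 ± 17.9 CPM in HU and 81.5 ± 22.1 CPM in DMSO (SD, n = 3 each), with HU under both other groups but an adjusted p of 0.177 against DMSO in edgeR. INCENP, the scaffold, ranged from 30.2 to 171 CPM in Thy-Noc, 19.2 to 86.1 CPM in HU and 23.7 to 149 CPM in DMSO.

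At the centromere, CENPF was called in 2 comparisons. CENPF (ENSG00000117724, chr1:214603195-214664588, plus strand), a large kinetochore protein that gathers in G2, had 180, 137 and 128 CPM in Thy-Noc, 66.6, 59.7 and 71.3 CPM in HU, and 144, 158 and 143 CPM in DMSO. HU lay well under the other two groups, which overlapped. The log2 fold change was −1.17 ± 0.15 in HU against DMSO (adjusted p = 0.0180 in edgeR), 1.17 ± 0.15 in Thy-Noc against HU (adjusted p = 0.0234 in edgeR) and 0.00 ± 0.14 in Thy-Noc against DMSO. CENPE, the kinetochore kinesin that brings chromosomes to the spindle equator, averaged 71.2 ± 23.6 CPM in Thy-Noc, 24.9 ± 5.59 CPM in HU and 65.2 ± 14.6 CPM in DMSO (SD, n = 3 each). HU was again the lowest group without overlap, and neither difference passed, with adjusted p of 0.0561 in HU against DMSO and 0.0601 in Thy-Noc against HU in edgeR. CENPA, the centromeric histone H3 variant, stood at 43.6, 30.6 and 0.828 CPM in Thy-Noc, 0.607, 0.220 and 1.57 CPM in HU, and 0.723, 31.0 and 0.292 CPM in DMSO. Its libraries were either near 30 CPM and above or under 2 CPM in each of Thy-Noc and DMSO. SGO2 stayed between 0.425 and 0.697 CPM in Thy-Noc, 0.253 and 0.428 CPM in HU, and 0.634 and 0.803 CPM in DMSO.

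None of the 9 kinesin genes passed in edgeR in any comparison, beside at most 2.0% of all tested genes in either direction. Their median log2 fold change of HU against DMSO was −0.67. KIF23, the motor of centralspindlin that builds the midzone, had 7.98, 1.16 and 1.29 CPM in Thy-Noc, 1.10, 7.99 and 6.88 CPM in HU, and 77.4, 67.8 and 68.5 CPM in DMSO. Both treatments were far under DMSO without overlap. The log2 fold change was −4.36 ± 1.05 for Thy-Noc (unadjusted p = 0.00401, adjusted p = 0.9998 in edgeR) and −3.74 ± 1.02 for HU (adjusted p = 0.0972 in edgeR), while DESeq2 gave adjusted p of 0.000595 for Thy-Noc and 0.000647 for HU. KIF20A, which carries the passenger complex to the midzone, had 115, 77.4 and 85.9 CPM in Thy-Noc, 10.01, 7.27 and 10.4 CPM in HU, and 74.5, 73.2 and 0.560 CPM in DMSO. DMSO replicate 3 stood apart there. Without that library the log2 fold change of HU against DMSO was −2.99 with an adjusted p of 0.0217 in edgeR, against −2.42 ± 1.26 and 0.329 with it. Leaving out any other library gave KIF20A an adjusted p of 0.373 to 0.538 in edgeR. The fit without DMSO replicate 3 called none of the 5 members called with every library.

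KIF4A, a motor on chromosome arms, averaged 37.7 ± 4.22 CPM in Thy-Noc, 27.5 ± 5.68 CPM in HU and 34.8 ± 1.69 CPM in DMSO (SD, n = 3 each), and the HU libraries lay under both other groups without passing. KIF18A, which aligns chromosomes, overlapped in all groups, at 19.1 ± 2.88 CPM in Thy-Noc, 15.9 ± 3.27 CPM in HU and 16.5 ± 0.571 CPM in DMSO (SD, n = 3 each). KIF11, the motor that pushes the spindle poles apart, had 2.01, 282 and 13.5 CPM in Thy-Noc, 0.911, 170 and 238 CPM in HU, and 296, 233 and 0.102 CPM in DMSO. High and low libraries of KIF11 occurred in every group, and the log2 fold change of HU against DMSO was −0.37 with an SE of 2.45. KIF2C, which takes microtubule ends apart, KIF14 and KIF20B of cytokinesis, and KIF15, which can stand in for KIF11, had log2 fold changes of HU against DMSO between −1.04 and 0.21, each smaller than its SE. For KIF2C, Thy-Noc replicate 3 stood apart at 65.3 CPM, where replicates 1 and 2 held 3.87 and 5.66 CPM. Its log2 fold change of Thy-Noc against DMSO was 2.37 ± 1.24 and did not pass.

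Of the 8 spindle proteins, TROAP was called lower in HU than in DMSO, beside 1.56% of all tested genes. TROAP (tastin, ENSG00000135451, chr12:49323236-49331731, plus strand), a protein of the spindle poles, had 8.17, 12.6 and 2.71 CPM in Thy-Noc, 0.658, 1.78 and 1.04 CPM in HU, and 29.8, 44.6 and 74.6 CPM in DMSO. The 3 groups did not overlap, with Thy-Noc between HU and DMSO. HU against DMSO gave a log2 fold change of −5.42 ± 0.76 (adjusted p = 0.0223 in edgeR), or 42.9-fold lower. The HU values are near the floor, so the size of this fold change is uncertain. Thy-Noc against DMSO gave −2.67 ± 0.66, with an unadjusted p of 0.00475 and an adjusted p of 0.9998 in edgeR, and 0.00623 adjusted in DESeq2. Thy-Noc against HU gave 2.75 ± 0.67 (adjusted p = 0.0885 in edgeR). An annotated gene, AC125611.4, overlaps TROAP on the other strand.

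GTSE1, a microtubule-binding protein made in G2 and S phase, averaged 57.8 ± 4.81 CPM in Thy-Noc, 35.4 ± 5.74 CPM in HU and 52.3 ± 1.66 CPM in DMSO (SD, n = 3 each). Its groups did not overlap in any comparison, yet the log2 fold change of −0.56 ± 0.14 in HU against DMSO missed the threshold (adjusted p = 0.0783 in edgeR), while it passed in DESeq2 (adjusted p = 0.000663) and in edgeR among steady genes only (adjusted p = 0.0473). DLGAP5, which stabilises spindle microtubules, averaged 14.6 ± 5.85 CPM in Thy-Noc, 5.02 ± 2.81 CPM in HU and 18.7 ± 14.96 CPM in DMSO (SD, n = 3 each), with HU under both other groups without overlap. It did not pass in edgeR, and in HU against DMSO it passed in DESeq2 (adjusted p = 0.0422). HMMR and TACC3, which organise the spindle, and FAM83D, which brings a casein kinase to it, overlapped in all groups, with log2 fold changes of HU against DMSO between 0.05 and 0.35. ASPM, a spindle-pole protein, was at 109, 1.41 and 1.41 CPM in Thy-Noc, 0.721 to 1.98 CPM in HU and 0.411 to 3.04 CPM in DMSO, a log2 fold change of 4.54 ± 1.85 for Thy-Noc against DMSO. Without Thy-Noc replicate 1 that fold change was −0.18. NUSAP1, which bundles spindle microtubules, ranged from 0.425 to 68.9 CPM in Thy-Noc alone.

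Of the 3 cytokinesis genes none passed in edgeR, beside at most 2.0% of all tested genes in either direction. All 3 had lower means in HU. ANLN (anillin, the scaffold of the contractile ring) averaged 23.4 ± 2.501 CPM in Thy-Noc, 9.58 ± 3.86 CPM in HU and 19.4 ± 5.27 CPM in DMSO (SD, n = 3 each). PRC1, which cross-links midzone microtubules, averaged 243 ± 23.9 CPM in Thy-Noc, 142 ± 39.7 CPM in HU and 238 ± 84.8 CPM in DMSO (SD, n = 3 each). ECT2, which acts at the division plane, averaged 72.9 ± 24.7 CPM in Thy-Noc, 44.3 ± 16.6 CPM in HU and 64.7 ± 12.1 CPM in DMSO (SD, n = 3 each). ANLN and PRC1 did not overlap between Thy-Noc and HU, and all 3 overlapped between HU and DMSO.

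MKI67 (Ki-67), which coats mitotic chromosomes and is used as a marker of dividing cells, had 476, 386 and 391 CPM in Thy-Noc, 355, 267 and 457 CPM in HU, and 390, 445 and 346 CPM in DMSO. All groups overlapped. Its log2 fold changes were −0.13 ± 0.21 in HU against DMSO, 0.09 ± 0.21 in Thy-Noc against DMSO and 0.22 ± 0.21 in Thy-Noc against HU, none of which passed.

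**Figure D4:**
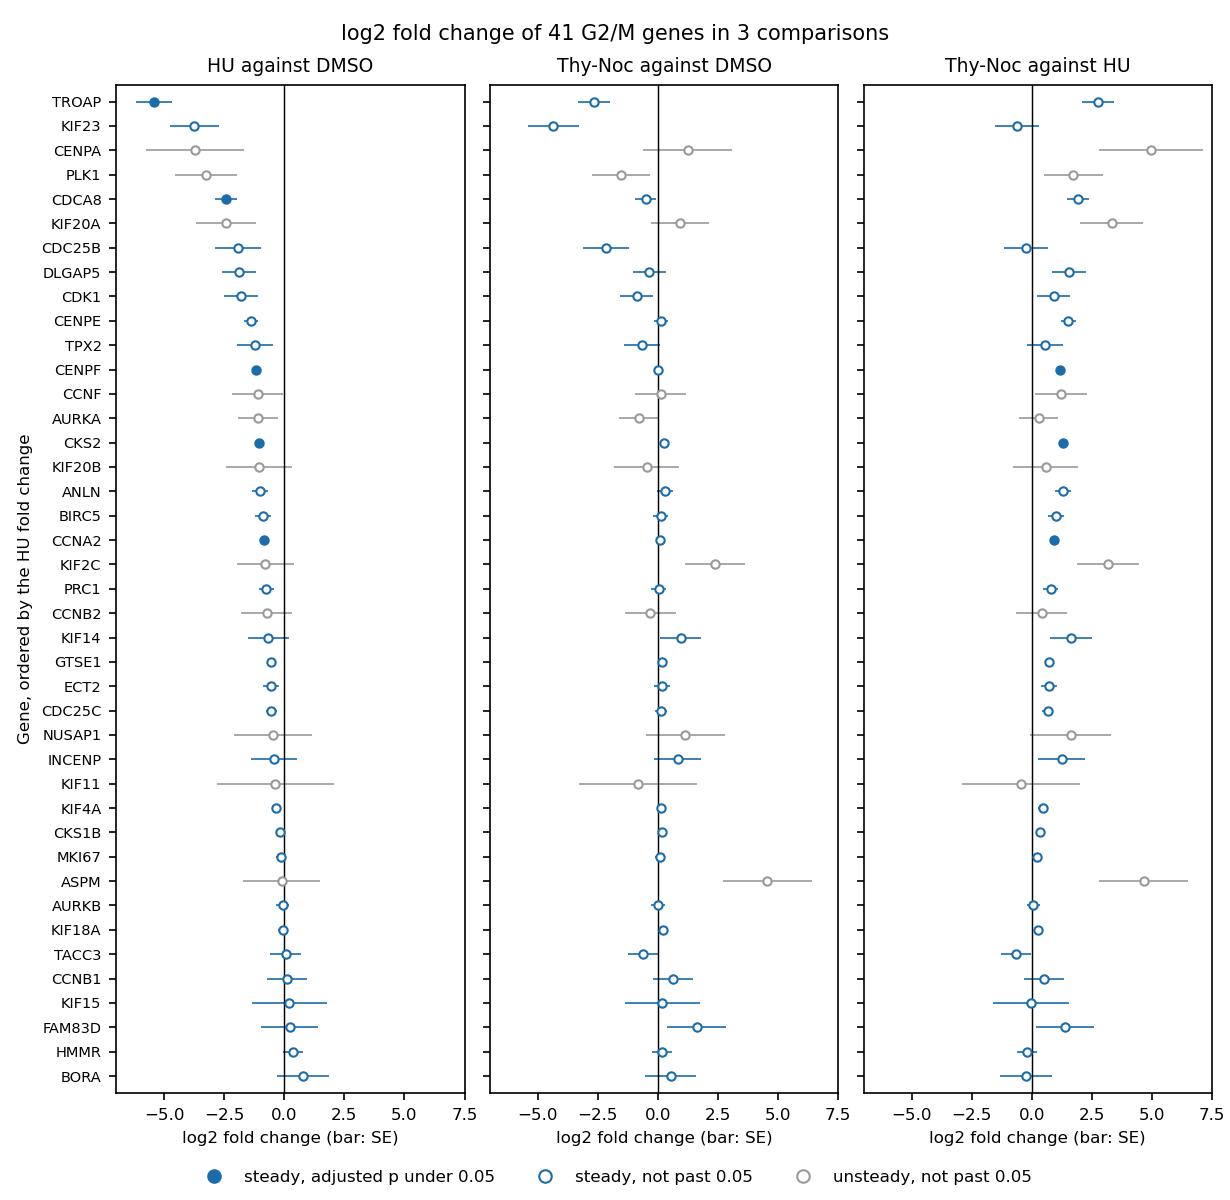
log2 fold change (x axis, bar: SE) of the 41 tested members (rows, ordered by the HU fold change) in HU against DMSO, Thy-Noc against DMSO and Thy-Noc against HU; filled points passed an adjusted p of 0.05 in edgeR and grey points are unsteady genes. The left panel has 35 points below 0, the middle panel scatters around 0, with KIF23, TROAP and CDC25B the farthest to the low side and ASPM and KIF2C the farthest to the high side, and the right panel has 34 points above 0.

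Many members had values that changed by large factors between libraries of the same group. Unsteady here means that, after adding 0.5 CPM, 2 libraries of the same group differed 10-fold or more. By that measure 11 of the 41 tested members were unsteady (26.8%), namely CCNB2, CCNF, PLK1, AURKA, CENPA, KIF11, KIF2C, KIF20A, KIF20B, NUSAP1 and ASPM, beside 16.2% of all tested genes. Among genes with 1 to 3 annotated transcripts, 2 of 9 members were unsteady (22.2%), beside 3.99% of all tested genes. With 4 to 10 transcripts it was 7 of 22 members (31.8%), beside 14.8%, and with over 10 transcripts 2 of 10 (20.0%), beside 26.3%. KIF11, which ranged from 0.102 to 296 CPM, has 1 annotated transcript in GENCODE.

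**Figure D5:**
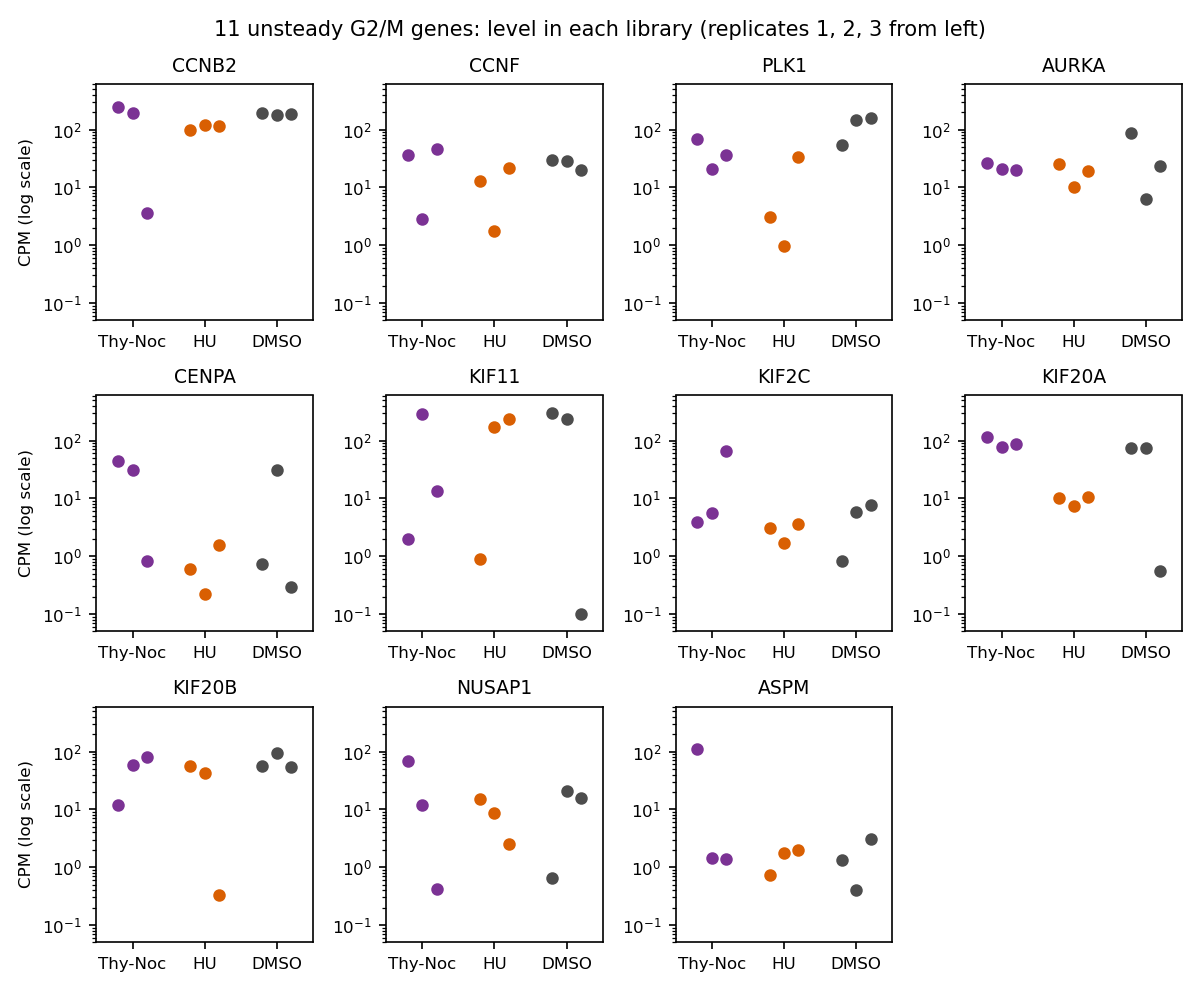
CPM on a log scale (y axis) of the 11 unsteady members in each library, grouped by treatment with replicates 1, 2 and 3 from left. KIF20A in DMSO and CCNB2 in Thy-Noc each have 1 library far below the rest, ASPM in Thy-Noc has 1 far above, and KIF11 is split in all 3 groups.

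The low libraries of these 11 genes were not the same from gene to gene. Of the 11, the number standing at least 10-fold under the gene's own highest library was 2, 3 and 5 in the Thy-Noc libraries, 6 in each HU library, and 4, 3 and 4 in the DMSO libraries. With the 11 set aside, the 30 steady members had median log2 fold changes of −0.62 in HU against DMSO, 0.12 in Thy-Noc against DMSO and 0.71 in Thy-Noc against HU. All 5 genes called lower in HU are steady, which is 16.7% of the 30 steady members, beside 1.85% of all steady tested genes. Of the 177 genes called lower among all tested genes, 176 were steady, so being steady does not set the 5 apart.

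Related gene lists, which hold none of the 43 members, were read in the same fit. Of 57 other G2/M and mitosis genes listed, 55 were tested, and 5 were lower in HU than in DMSO and 0 higher, beside 1.56% and 2.0% of all tested genes. Their median log2 fold change was −0.44. Among the 5 called, the largest changes were in PSRC1, a spindle protein, at −3.67 ± 0.56, in KNSTRN, a kinetochore adaptor, at −1.17 ± 0.20, and in TOP2A, the topoisomerase that separates sister chromatids, at −1.03 ± 0.15. PSRC1 was scarce, at 2.30 to 6.22 CPM in Thy-Noc, 0.238 to 0.595 CPM in HU and 3.45 to 6.22 CPM in DMSO, so its fold changes are taken near the floor. In Thy-Noc against HU, 4 of the 55 were higher, beside 1.06% of all tested genes, led among those called by PSRC1 at 3.19 ± 0.54, DEPDC1B at 1.13 ± 0.20 and TOP2A at 0.97 ± 0.15. None of the 55 passed in Thy-Noc against DMSO in edgeR. Leaving out 1 library left 0 to 3 calls lower in HU, with 0 without DMSO replicates 1 or 3 or HU replicates 1 or 3. It left 0 to 1 higher in Thy-Noc against HU, with 0 except without HU replicate 2.

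Of 30 tested spindle checkpoint and APC/C genes, 2 were lower in HU than in DMSO, beside 1.56% of all tested genes. They were CDC20, the APC/C activator, at −1.79 ± 0.24 and UBE2S, an APC/C ubiquitin-conjugating enzyme, at −0.86 ± 0.17. In Thy-Noc against HU, 3 were higher, beside 1.06% of all tested genes: CDC20 at 2.21 ± 0.24, UBE2S at 0.99 ± 0.17 and the checkpoint kinase BUB1 at 0.79 ± 0.14. Both counts ran from 0 to 2 when 1 library was left out, and both were 0 without HU replicate 1. The HU count was also 0 without HU replicate 3 or any 1 DMSO library, and the Thy-Noc count without Thy-Noc replicate 3. Among the E2F and G1/S list, whose genes peak earlier in the cycle, 45 were tested, of which 0 were lower in HU than in DMSO and 2 were higher, beside 1.56% and 2.0% of all tested genes. The higher genes were CCNE2 (cyclin E2) at 2.73 ± 0.49 and SLBP, the binder of histone mRNA, at 1.75 ± 0.12. SLBP was also higher in Thy-Noc against DMSO, at 1.76 ± 0.12, beside 0.0264% of all tested genes, and kept both calls whichever library was left out, while CCNE2 lost its call without any 1 of DMSO replicates 1 to 3, HU replicates 1 or 3, or Thy-Noc replicates 2 or 3. The median log2 fold change of HU against DMSO was −0.33 in the 30 checkpoint genes and 0.15 in the 45 G1/S genes, beside −0.75 in the 41 members.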

How the data were processed

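The libraries were made from mRNA with a stranded kit, per the labels' protocols. FastQC, Trim Galore, STAR and DESeq2 are named without versions, and the genome build is GRCh38, per the submitters' processing notes. Not given in the sources used here are what each did and how reads were counted (tool, annotation, strand). The authors deposited 1 table whose name says CPM. Its values are whole numbers with unequal totals per library, so they were taken as the authors' deposited expected counts, rounded to whole numbers, and were tested as counts. Some values may cover part of a gene only.

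Genes were matched by identifier: 15393 of 15436 had a symbol and 15272 had coordinates in GENCODE release 29. edgeR 4.0.16 in R 4.3.3 was run on 11346 genes, those reaching a CPM of 1 in 3 or more libraries, with TMM scaling, a quasi-likelihood fit of the 3 groups over all 9 libraries, 6 residual degrees of freedom and Benjamini-Hochberg adjustment over all tested genes (threshold 0.05). Tests were 2-sided. Standard errors are the log2 fold change over the root of F, and CPM values use the scaled library sizes. The fit was tested on counts simulated with the same dispersion (spread between libraries) for every gene. That test does not cover the uneven spread of these libraries. Precision is limited by the spread between libraries: the median expected count of a tested gene was 1187, and libraries of the same group differed by a chi-square of 930 to 1230 per degree of freedom, so none repeats another.

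The fits tried besides were a replicate block, median-of-ratios scaling, a CPM minimum of 5, no filter, the 6 libraries compared only, DESeq2 1.42.0, limma 3.58.1 on log2(CPM + 0.5), steady genes only, and leaving out each library. Running them on the 3 related lists was chosen after seeing the data. The members and lists were chosen with earlier results of these data known. Values in every library are given for members called in any comparison and for CCNB1, CDK1, PLK1, AURKA, AURKB and MKI67; those of CENPA, KIF11, KIF20A, KIF23 and ASPM were added after their values were seen. From each related list, up to 3 called genes per direction with the largest change and a mean CPM of at least 2 are named. Gene pairs that overlap, and genes with pseudogenes named after them (CKS1B, AURKA, NEK2, CCNB2, DLGAP5 and MKI67), are uncertain.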

Additional observations from a re-analysis of the deposited data

How the results depend on the processing

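The members' median log2 fold changes kept their direction under every alternative run, at −0.95 to −0.61 in HU against DMSO, 0.002 to 0.15 in Thy-Noc against DMSO and 0.77 to 0.92 in Thy-Noc against HU when each library was left out in turn. Counts of calls did not keep their size. Members lower in HU against DMSO, 5 in edgeR, were 11 in DESeq2, 1 when only the 6 libraries compared were fitted, and 0 to 5 when 1 library was left out. They were 0 without DMSO replicate 1 or without HU replicate 1. The share of all tested genes called lower, 1.56% in edgeR, moved too: it was 9.31% in DESeq2, 0.115% with 6 libraries and 0.0705% to 1.11% with 1 library left out. Members higher in Thy-Noc against HU, 3 in edgeR, were 5 with a CPM minimum of 5, 6 among steady genes only, 12 in DESeq2, 1 with 6 libraries, and 0 to 3 when 1 library was left out, with 0 without HU replicate 1 or Thy-Noc replicate 3. The share of all tested genes called higher, 1.06% in edgeR, was 2.11% with a CPM minimum of 5, 2.45% among steady genes, 8.16% in DESeq2, 0.106% with 6 libraries and 0.00881% to 0.494% with 1 library left out. Members lower in Thy-Noc against DMSO, 0 in edgeR, were 2 in DESeq2. Over all genes too, a fit without DMSO replicate 1 called 16 genes lower in HU, where all 9 libraries called 177.

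Libraries of different groups with the same replicate number had correlations of −0.04 to 0.04 of their deviations from the group means. Those with different numbers had −0.05 to 0.03. Between HU and Thy-Noc, same-number pairs had 0.03 to 0.04 and the other pairs −0.03 to −0.01. Over steady genes the highest value was 0.095, for HU replicate 2 with Thy-Noc replicate 2. Whether the numbers pair the libraries cannot be told from these values. With the replicate number as a block, members called were 0 in HU against DMSO and 0 in Thy-Noc against HU, where the fit over all genes called 2 lower and 7 higher in HU against DMSO.

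For other G2/M genes, calls lower in HU (5) were 3 with no filter, 8 with a CPM minimum of 5, 0 with the block, 0 with 6 libraries, 17 in DESeq2, 9 among steady genes and 0 to 3 with 1 library left out, and calls higher in HU (0) were 3 in DESeq2. Calls higher in Thy-Noc against HU (4) were 0 with no filter, 7 with a CPM minimum of 5, 0 with the block, 0 with 6 libraries, 19 in DESeq2, 7 in limma, 8 among steady genes and 0 to 1 with 1 library left out, and calls lower (0) were 4 in DESeq2. For checkpoint and APC/C genes, calls lower in HU (2) were 1 with no filter, 0 with the block, 0 with 6 libraries, 7 in DESeq2 and 0 to 2 with 1 library left out. Their calls higher in Thy-Noc against HU (3) were 1 with no filter, 0 with the block, 0 with 6 libraries, 6 in DESeq2 and 0 to 2 with 1 library left out, and calls lower (0) were 1 in DESeq2. For E2F and G1/S genes, calls higher in HU (2) were 1 with the block, 1 with 6 libraries and 1 to 3 with 1 library left out, and calls lower in HU (0) were 3 in DESeq2, 1 in limma and 1 among steady genes. Their call higher in Thy-Noc against DMSO (1) was 0 with the block and 1 to 2 with 1 library left out. Against HU, calls lower (0) were 1 with a CPM minimum of 5, 1 in DESeq2, 1 in limma and 1 among steady genes, and calls higher (0) were 1 with 6 libraries, 2 in DESeq2 and 0 to 1 with 1 library left out. The cause of these differences was not tested.

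Fold changes past no threshold were less stable: 100 of their values, over 46 pairs of gene and comparison, had the other sign under an alternative, none of them called in either fit. The called members kept their direction under all 17 alternatives. CKS2 lost its call in HU against DMSO under 5 of them, CENPF under 6, CCNA2 and TROAP under 7 each, and CDCA8 under 11. In Thy-Noc against HU, CKS2 lost it under 4, CENPF under 9 and CCNA2 under 11. The adjusted p of CKS2 in HU against DMSO ran from 6.37e-14 to 0.0638 over edgeR, DESeq2 and limma alternatives.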
